A study of Homo sapiens with 6 samples.

Results

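The 10 genes described here encode transcription factors of the ETS family: ETS1, ETS2, FLI1, ERG, ETV6, ELF1, ELF2, GABPA, ELK3 and SPI1. They were taken as a named set of 10 out of 19974 protein-coding genes, and every H3K27ac peak over a gene body or within 50 kb of it (genome build hg38) was assigned to that gene. H3K27ac is acetylation of lysine 27 on histone H3, which is found at promoters and enhancers in use. It was profiled by CUT&Tag, per the series description, in Jurkat cells (2 libraries, replicates 1 and 2) and 6T-CEM cells (1 library), which the labels call T-ALL cells, that is, cells of an acute leukaemia of the T lineage. The antibody and the line are all that the sample labels give: GNE-987, a BET inhibitor, stands in the series title, and the description speaks of treatment at 10 nM for 24 h, but the sample labels are silent on it. Whether a library comes from treated or untreated cells is therefore not known here. Both lines are cultured leukaemia cells, so each stands for 1 leukaemia and not for T cells in general.

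ETS factors share a DNA-binding domain, the ETS domain, that reads a GGAA core, and differ in the partners they bind and in whether they activate or repress. In the blood system ERG and FLI1 sustain stem and progenitor cells, ETS1 acts in T cells, SPI1 (PU.1) directs myeloid and B-cell fates and is shut off as T cells commit, and ETV6 is a repressor that is often rearranged in leukaemia. Several ETS genes lie side by side as old duplicates: ETS1 next to FLI1 on chromosome 11, and ERG next to ETS2 on chromosome 21.

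The 10 windows held 115 of the 16159 peaks of Jurkat replicate 1, 169 of 32097 in Jurkat replicate 2 and 217 of 35154 in 6T-CEM. Sequencing depth is unknown, since peak lists hold no counts of reads, and the lists differ in length. As a check of the labels, peaks within 1 kb of a gene end were found at 5, 7 and 6 of 7 T-cell genes in the 3 lists in that order. They were found at 0, 1 and 1 of 4 myeloid genes, the 1 being CSF1R, and at none of 4 erythroid and megakaryocytic genes in any list. With 1 library of 6T-CEM its own spread is unknown, so no test of the lines was made, and the difference between the Jurkat libraries is given beside each result.

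Promoters of ERG, ETV6 and ELF2 are printed first, for the reasons given below. Start sites were taken from the RefSeq (GRCh38.p14) promoter table used here, which was matched for 7 of the 10 genes; those of ETS1, FLI1 and SPI1 were not used here. The sequences below are the 250 bases before a start site, 5′ to 3′ on the gene's strand. ERG is shown at its outermost start, which had no peak, and at an internal start, which lay under the peak of highest fold that 6T-CEM had in the 10 windows; ETV6 is shown because its promoter was covered in every library, and ELF2 at its internal start, where the Jurkat libraries differed. Capitals mark AGATAA, the GATA letters, and CAGATG, an E-box, on either strand.
ERG, outermost start, chr21:38660668-38660917, minus strand: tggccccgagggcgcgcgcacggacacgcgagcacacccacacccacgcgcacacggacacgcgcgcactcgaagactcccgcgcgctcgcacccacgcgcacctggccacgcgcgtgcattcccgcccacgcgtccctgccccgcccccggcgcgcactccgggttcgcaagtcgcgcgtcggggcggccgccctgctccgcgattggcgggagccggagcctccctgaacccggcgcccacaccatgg
ERG, internal start, chr21:38498505-38498754, minus strand: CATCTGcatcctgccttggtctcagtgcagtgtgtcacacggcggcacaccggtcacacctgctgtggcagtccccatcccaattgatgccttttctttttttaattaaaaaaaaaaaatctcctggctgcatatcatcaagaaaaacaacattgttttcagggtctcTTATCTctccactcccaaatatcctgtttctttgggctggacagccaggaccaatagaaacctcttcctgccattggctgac
ETV6, chr12:11649424-11649673, plus strand: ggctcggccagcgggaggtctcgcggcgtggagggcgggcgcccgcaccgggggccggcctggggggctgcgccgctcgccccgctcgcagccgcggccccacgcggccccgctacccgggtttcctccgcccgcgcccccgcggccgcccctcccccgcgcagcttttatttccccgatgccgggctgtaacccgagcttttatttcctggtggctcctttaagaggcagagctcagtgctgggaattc
ELF2, internal start, chr4:139084225-139084474, minus strand: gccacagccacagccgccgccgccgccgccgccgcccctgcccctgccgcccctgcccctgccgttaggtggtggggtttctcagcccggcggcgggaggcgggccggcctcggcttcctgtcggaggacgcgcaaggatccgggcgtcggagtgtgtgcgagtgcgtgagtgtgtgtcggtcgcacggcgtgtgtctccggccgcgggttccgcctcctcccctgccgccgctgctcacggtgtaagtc

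GABPA is shown by a 30-base stretch of its promoter with the letters CCGGAAG, the ETS core with its flanks, read here on the opposite strand and marked in capitals.
GABPA, chr21:25734894-25734923, plus strand: acctccgctctaCTTCCGGccctggctccg

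The CCGGAAG match began 66 bases before the GABPA start site. Of the 15 listed promoters of the 7 genes, that of GABPA alone held these letters on either strand, compared with 10.7% of 22130 promoters of protein-coding genes. AGATAA was present in 4 of the 15 (7.09% of all) and CAGATG in 3 (10.2%), and the internal ERG promoter held both. The SPI1-type letters GAGGAAG were in 2 (11.9%) and the RUNX letters TGTGGT in 1 (9.36%). A second internal ERG start lies beside it, and its promoter shares the AGATAA match, which is thus counted for both. GAGGAAG and CCGGAAG share their last 5 letters, and a match describes letters only.

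H3K27ac coverage differed by more than an order of magnitude among the 10 genes. ETV6 and ETS1 had the most covered bases in each library, and ELK3, ETS2, ELF2 and GABPA had 5 peaks or fewer each in any library. ETV6 and ETS1 together held 66.6%, 66.2% and 59.8% of the covered bases of the 10 windows in replicates 1 and 2 of Jurkat and in 6T-CEM. Gene bodies held 91.2%, 86.6% and 83.3%. In 7 of the 10 genes 6T-CEM had more covered bases than both Jurkat libraries, compared with 52.3% of the 15640 protein-coding genes that had covered bases in any library. In 1 gene, ETS2, it had fewer than both, compared with 15.3%. When each list was cut to its 16159 peaks of highest −log10 q, 5 genes lay above both (38.7% of all genes), and ETV6 and ETS1 lay within the Jurkat range.

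**Figure D1:**
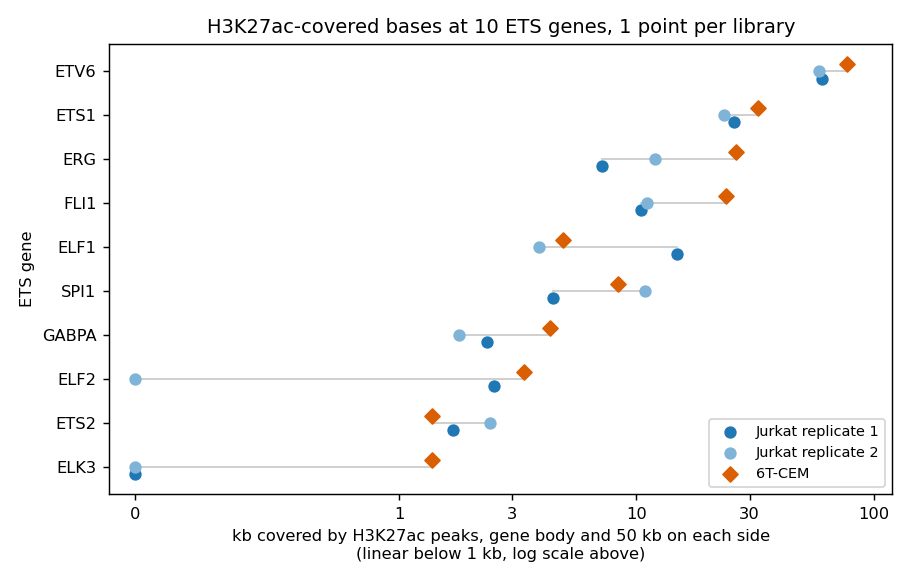
Kilobases covered by H3K27ac peaks over each ETS gene and 50 kb on each side (x axis, linear below 1 kb and logarithmic above), with 1 point per library and a grey line from the lowest to the highest. ETV6 and ETS1 have the widest coverage in every library, 6T-CEM lies to the right of both Jurkat libraries at 7 genes, and the Jurkat libraries lie far apart at ELF1 and ELF2.

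Covered bases in 6T-CEM were divided by the Jurkat mean after adding 500 bases to each, and the log2 of this ratio was centred on the median of all genes, which was 0.35 before centring. The median over the 10 genes was 0.31, against 0 for all genes by centring, and the median for Jurkat replicate 1 over replicate 2 was 0.19. The median of the lines was 0.47 without Jurkat replicate 1, −0.0069 without Jurkat replicate 2 and 0.0038 within gene bodies alone, so it rests on Jurkat replicate 2 and on the flanks. A difference of 2-fold or more was seen in 2 genes in the direction of 6T-CEM, ERG and ELK3 (14.4% of all genes), and in 1 gene in the direction of Jurkat, ELF1 (11.5%). Between the Jurkat libraries themselves, 2 genes, ELF1 and ELF2, were 2-fold or more higher in replicate 1 (13.3% of all genes) and 1, SPI1, was 2-fold or more lower (20.4%).

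ETV6, the repressor (chromosome 12, 11649674 to 11895377), had the highest coverage of the set. Peaks covered 60567 bp of its window in Jurkat replicate 1, 58984 bp in Jurkat replicate 2 and 77188 bp in 6T-CEM, in 49, 79 and 91 peaks. These are 17.5%, 17.1% and 22.3% of the window, and 99.7%, 97.0% and 98.1% of genes had a lower share. The centred ratio was 0.02, and it was 0.09 without replicate 1 and −0.23 without replicate 2, so the lines were not separated in the total. The strongest peaks of all libraries fell in 1 region, chromosome 12, 11795028 to 11801101, inside the gene, with summits 149.4, 147.8 and 147.2 kb from the start site. Their folds (enrichment over the caller's background, as given by the authors) were 14.9, 23.4 and 19.7.

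Along ETV6 the peaks of 6T-CEM were placed differently from those of both Jurkat libraries. In the first 100 kb from the start site peaks covered 1985 bp in Jurkat replicate 1, 7088 bp in Jurkat replicate 2 and 25945 bp in 6T-CEM. In the remaining 145.7 kb of the gene the order was the opposite, with 54558 bp, 49214 bp and 45708 bp. Both Jurkat libraries are low in the proximal stretch, and 6T-CEM is the lowest in the distal one. At equal list length the proximal values were 1985, 3988 and 20352 bp, in the same order. The promoter printed above was fully covered in each library, with folds of 5.73, 4.91 and 7.93. Just past it, 6T-CEM had a peak of 2807 bp (11652396 to 11655202, fold 14.3) where neither Jurkat list had one. The split at 100 kb was chosen after the values were seen.

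**Figure D2:**
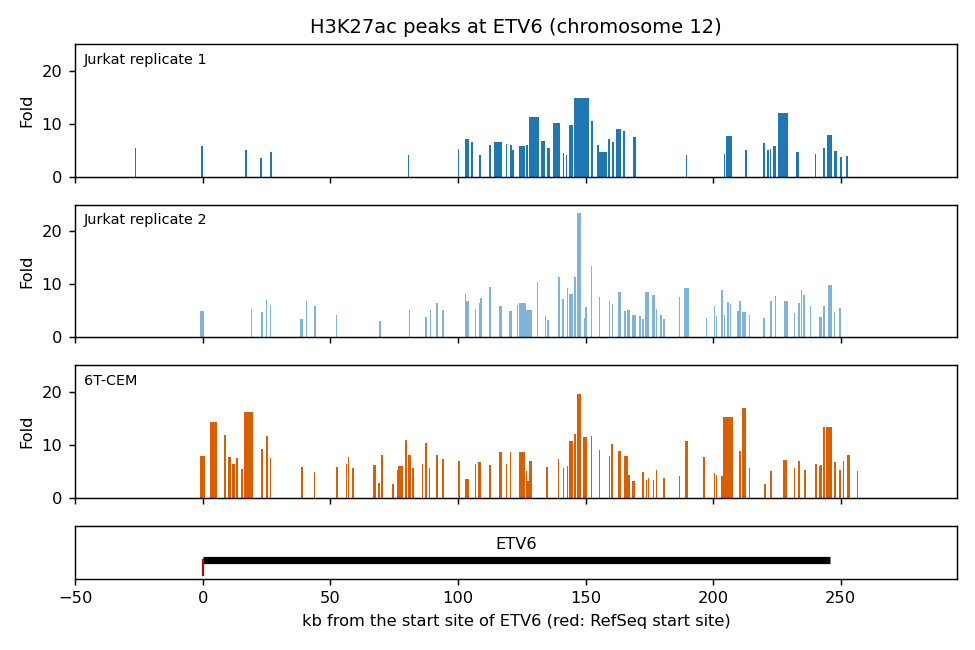
H3K27ac peaks at ETV6 by distance from its start site in kb (x axis), with bar height giving the authors' fold and bar width the peak (the narrowest are drawn wider to be visible), for each library. In the first 100 kb 6T-CEM has 31 peaks and the Jurkat libraries 6 and 15, whereas all libraries have a peak of fold 14.9 or more at 147.2 to 149.4 kb.

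ETS1, the T-cell activator (chromosome 11, 128458765 to 128587558), was covered over 25834 bp and 23472 bp in replicates 1 and 2 of Jurkat and 32591 bp in 6T-CEM, in 24, 35 and 42 peaks. The Jurkat libraries differed little, and 6T-CEM lay above both by about the shift of 0.35 common to all genes, so the centred ratio was 0.05. Within the gene body the values were 25203, 20564 and 22931 bp, and 6T-CEM lay inside the Jurkat range. Peaks were concentrated in the 50 kb at the lower-coordinate end of the gene, with 19285, 16042 and 17157 bp, and the stretch from 100 kb to the other end, at 128.8 kb, had no peak in any library. Of the regions shared by all libraries, the one whose lowest fold was highest lay at chromosome 11, 128470970 to 128477975, inside the gene, with folds of 6.39, 16.7 and 17.9. In Jurkat replicate 1 other shared regions had slightly higher folds, up to 6.78. The strongest peak of this region ranked 46 by fold in the Jurkat replicate 2 list and 135 in that of 6T-CEM. Of the 47 regions at ETS1 (groups of overlapping peaks), 13 held peaks of all libraries, 12 of 6T-CEM alone and 2 of both Jurkat libraries without 6T-CEM.

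FLI1, a progenitor factor and the oncogene of Ewing sarcoma fusions, lies at chromosome 11, 128685132 to 128813267. It was covered over 10420 bp, 11094 bp and 23810 bp, in 12, 15 and 24 peaks. The Jurkat libraries were close to each other, and 6T-CEM was above both, with a centred ratio of 0.77. The ratio was 0.77 without replicate 1 and 0.58 without replicate 2. The regions shared by all libraries, all inside the gene, did not share 1 order. At 128693794 to 128696495 folds were 5.97, 5.95 and 7.08. At 128725267 to 128729708 they were 5.46, 6.05 and 9.18, highest in 6T-CEM, and at 128716060 to 128719743 they were 7.29, 5.17 and 4.64, lowest in 6T-CEM. At 128738231 to 128740121 they were 6.24, 3.43 and 6.68. The highest fold in 6T-CEM, 10.3, belonged to a 483 bp peak (128678060 to 128678542) outside the gene, in the interval towards ETS1, with no Jurkat peak. Of 30 regions, 13 held 6T-CEM peaks alone and 4 held peaks of all libraries.

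The 97.6 kb interval between ETS1 and FLI1, which contains no other protein-coding gene of the RefSeq table, held 631 bp in 1 peak in Jurkat replicate 1, 1820 bp in 4 peaks in replicate 2 and 6152 bp in 9 peaks in 6T-CEM. The windows of the genes overlap by 2427 bases, where no library had a peak, so no peak was counted for both.

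**Figure D3:**
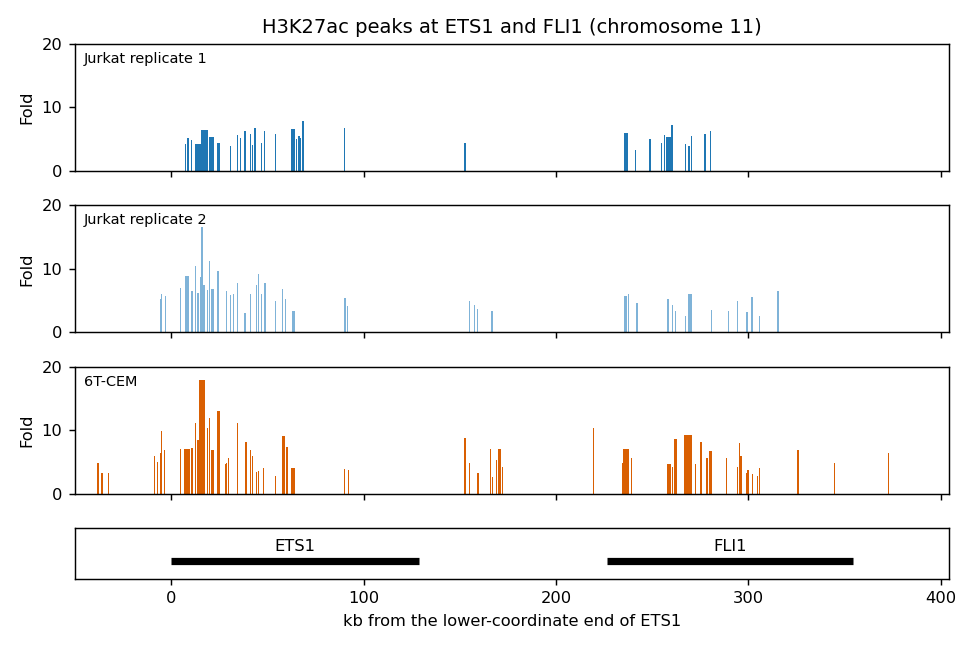
H3K27ac peaks across ETS1 and FLI1 by distance in kb from the lower-coordinate end of ETS1 (x axis), with bar height giving the authors' fold (the narrowest bars are drawn wider to be visible). Peaks cluster in the first 50 kb of ETS1 in each library, and 6T-CEM has 9 peaks between the genes against 1 and 4 in Jurkat.

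ERG (chromosome 21, 38367261 to 38661783) is a stem-cell factor and a known oncogene in leukaemia. Its window was covered over 7148 bp by 3 peaks in Jurkat replicate 1, 11949 bp by 16 peaks in Jurkat replicate 2 and 26284 bp by 32 peaks in 6T-CEM. The value of 6T-CEM exceeds both Jurkat values, which themselves differ by −0.53 on the centred log2 scale. The centred ratio of the lines was 1.07, just past 2-fold, and it was 0.81 without Jurkat replicate 1, 1.23 without replicate 2 and 1.58 at equal list length. Of 32 regions at ERG, 17 held 6T-CEM peaks alone, 8 were shared with Jurkat replicate 2, 3 held peaks of all libraries, and none held both Jurkat libraries without 6T-CEM.

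The strongest of these peaks lay at an internal ERG start. In 6T-CEM a peak of 1841 bp (chromosome 21, 38497474 to 38499314, −log10 q 47.5) had a fold of 20.1, rank 61 of 35154, and covered all 250 bases of the internal promoter printed above. The nearest Jurkat peaks were 18.5 kb from this start in replicate 1 and 4.26 kb in replicate 2. The outermost start was unmarked everywhere: the nearest peak was 144.5 kb, 38.3 kb and 106.3 kb away. A further internal start, at 38584945, also had no peak within 1 kb in any library. Its nearest peaks were 104.9 kb, 6.8 kb and 85.6 kb away. The 6T-CEM peak was kept among peaks with −log10 q of 5 or more and at equal list length. It was singled out after its value was seen.

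Other ERG regions were common to the lines. At 38386760 to 38388250, inside the gene, folds were 10.2, 7.45 and 15.4, and this held the strongest ERG peak of Jurkat replicate 1. The strongest ERG peak of Jurkat replicate 2 (38475142 to 38477493, fold 10.4) also overlapped peaks of both other lists. No library had a peak from 150 to 200 kb of the gene, counted from its lower-coordinate end.

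ETS2, a RAS-responsive relative of ETS1 (chromosome 21, 38805183 to 38824955), had few peaks. It was covered over 1686 bp, 2421 bp and 1381 bp, in 1, 5 and 2 peaks, so 6T-CEM lay below both Jurkat libraries by a small number of bases. The single region shared by all libraries, 38805209 to 38806910, lay at the second of 2 listed start sites, with folds of 10.6, 6.32 and 6.35. The remaining 4 regions of Jurkat replicate 2 and 1 of 6T-CEM were seen in those libraries alone. The 143.4 kb between ERG and ETS2 held 0, 1 and 1 peaks.

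**Figure D4:**
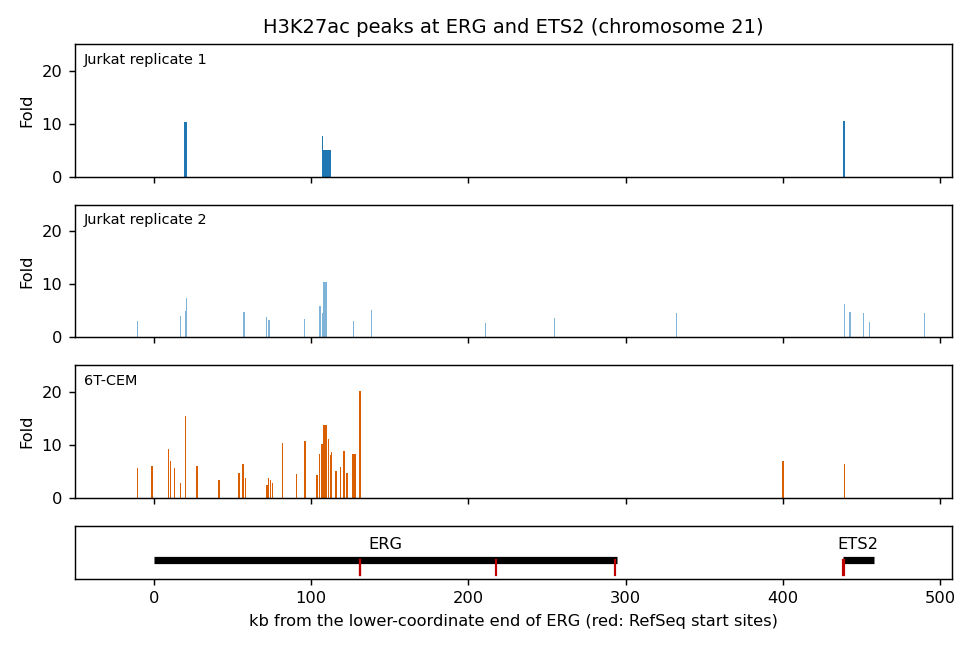
H3K27ac peaks across ERG and ETS2 by distance in kb from the lower-coordinate end of ERG (x axis), with bar height giving the authors' fold and red ticks the listed start sites (the narrowest bars are drawn wider to be visible). The 6T-CEM bar of fold 20.1 stands at an internal start of ERG without a Jurkat counterpart, while the interval up to ETS2 is nearly empty.

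ELF1, an activator of lymphoid genes (chromosome 13, 40931919 to 41061386), was the gene on which the Jurkat libraries disagreed most in bases. It was covered over 14813 bp by 16 peaks in Jurkat replicate 1, 3884 bp by 8 peaks in Jurkat replicate 2 and 4906 bp by 11 peaks in 6T-CEM. Jurkat replicate 1 stands alone, and 6T-CEM lies between the Jurkat values. The centred ratio of the lines was −1.21, but that of replicate 1 to replicate 2 was 1.98. Without replicate 1 the ratio of the lines was 0.0025, and without replicate 2 it was −2.08. Thus the 2-fold difference at ELF1 rests on Jurkat replicate 1. Of 21 regions 9 held peaks of that library alone, among them its strongest ELF1 peak, 4198 bp wide (chromosome 13, 41004263 to 41008460, fold 10.0). Shared regions lay between the starts: 41000940 to 41002634, inside the gene, had folds of 7.86, 6.78 and 5.14. At the outermost start, 0.122 kb from the neighbouring gene WBP4, peaks within 1 kb had folds of up to 6.58, 4.93 and 6.62. Signal there cannot be told apart between ELF1 and WBP4.

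**Figure D5:**
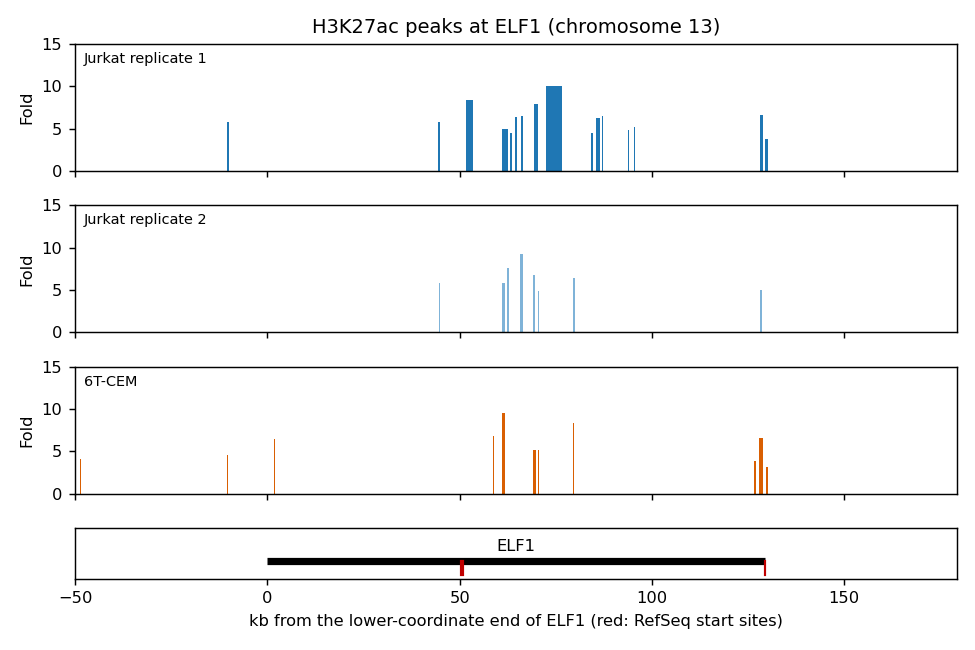
H3K27ac peaks at ELF1 by distance in kb from its lower-coordinate end (x axis), with bar height giving the authors' fold and red ticks the listed start sites (the narrowest bars are drawn wider to be visible). Jurkat replicate 1 has 12 peaks between 50 and 100 kb, Jurkat replicate 2 has 6 and 6T-CEM has 5.

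ELF2, a close relative of ELF1 (chromosome 4, 139057220 to 139177915), had 2501 bp in 2 peaks in Jurkat replicate 1, none in Jurkat replicate 2 and 3376 bp in 3 peaks in 6T-CEM. One peak of each library with a signal lay at NOCT, a neighbouring gene. The other pair overlapped at the internal ELF2 start printed above (chromosome 4, 139082667 to 139084617), with folds of 3.41 and 3.64. The 250 bases were covered for 11 bp in Jurkat replicate 1 and in full in 6T-CEM. The remaining 6T-CEM peak (139176212 to 139176733, fold 2.81) lay within 1 kb of the outermost ELF2 start, where neither Jurkat library had a peak. The centred ratio of 0.80 depended on the Jurkat library used, at 2.65 without replicate 1 and −0.20 without replicate 2.

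GABPA, the DNA-binding subunit of GABP, a regulator of respiratory and other basic genes, lies at chromosome 21, 25734972 to 25772460. Its window had 2354 bp, 1789 bp and 4345 bp. Its start site was marked in each library by a region at chromosome 21, 25734273 to 25736329, with folds of 3.38, 4.57 and 6.16, that covers the ETS letters printed above. GABPA and ATP5PF, which encodes a subunit of ATP synthase, overlap by 682 bases there, so the signal of the genes cannot be told apart. Outside the gene, 6T-CEM had a peak of 2055 bp and fold 16.2 (25818161 to 25820215), where Jurkat replicate 1 had 297 bp with fold 6.27 and replicate 2 none. Within the gene body alone the values were 1358, 1183 and 1159 bp, so the higher value of 6T-CEM comes from the flank.

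ELK3, a ternary complex factor that works with SRF (chromosome 12, 96194375 to 96269824), was listed at 0 in both Jurkat libraries and had 1380 bp in 3 peaks in 6T-CEM, of folds 2.75 to 4.88. None lay within 1 kb of a listed start. With both Jurkat values at 0 no fold is given, and its place among the genes past 2-fold rests on the 500 bases added.

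SPI1 (chromosome 11, 47354860 to 47378547) was covered over 4455 bp, 10886 bp and 8341 bp, in 6, 10 and 6 peaks. 6T-CEM lies between the Jurkat libraries, whose ratio of −1.03 exceeds the −0.23 between the lines. Most of this coverage was outside the gene, which held 16.4%, 19.3% and 18.1% of the bases. Of the peaks, 2, 3 and 3 lay within 1 kb of an end of the neighbours SLC39A13 or PSMC3, a proteasome subunit gene. These peaks held 1196, 2806 and 3047 bp. The widest region of the window (chromosome 11, 47393135 to 47396303) lay outside SPI1 and within 1 kb of no protein-coding gene end. It was shared by all libraries, with 1688, 3169 and 2956 bp and folds of 3.89, 6.89 and 6.20. The strongest peaks of the window in Jurkat replicate 2 and 6T-CEM lay in it. Inside SPI1 1 region was shared by all libraries (chromosome 11, 47358652 to 47360229), with folds of 4.60, 4.37 and 4.55 that were close to each other.

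Across the 7 genes with listed starts, 5 had a peak within 1 kb of any start in Jurkat replicate 1, 4 in Jurkat replicate 2 and 6 in 6T-CEM, compared with 41.0%, 34.6% and 42.9% of the 15812 protein-coding genes with listed starts. A gene with more listed starts has more chances to be counted. The 7 genes have 15 listed starts, and the 15812 genes have 22130. ETV6, ETS2, GABPA and ELF1 had a start-site peak in all libraries, ELF2 in Jurkat replicate 1 and 6T-CEM, ERG in 6T-CEM, and ELK3 in none.

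Peaks were also compared as regions. Of 254 regions in the 10 windows, 65 held peaks of all libraries, or 25.6% against 17.4% of all 49528 regions, and 73 held 6T-CEM peaks alone, or 28.7% against 32.2%. Both Jurkat libraries had peaks in 70 of these regions, and in 65 of the 70 a peak of 6T-CEM was present. This is 92.9% (exact Clopper-Pearson interval 84.1 to 97.6, for counting error only), and the interval just includes the 84.5% found for all 10206 such regions. Regions of 1 gene are neighbours and not independent, and 36 of the 65 lay at ETV6 and 13 at ETS1. The interval takes no account of this. The 5 without a 6T-CEM peak lay at ETS1 (2), ELF1 (2) and ETV6 (1). With a minimum −log10 q of 5 the share was 86.5% against 85.1%, and at equal list length it was 74.6% against 70.7%.

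When peaks 12.5 kb or less apart were joined and ranked by width times fold, the bodies of 4, 3 and 4 of the 10 genes overlapped a large region (one past the point where the ranked curve turns steep) in replicates 1 and 2 of Jurkat and in 6T-CEM. Of all genes, 2.92%, 5.56% and 5.27% did, and long genes have more room to do so. ETS1 and ETV6 did in each list. The ETS1 regions spanned 61.9, 70.2 and 73.6 kb and ranked 47, 131 and 109. The ETV6 regions spanned 69.9, 180.6 and 257.7 kb, the last the whole gene. FLI1 regions ranked 240, 844 and 298, and were large except in Jurkat replicate 2. At ERG the region ranked 583 and 1104 in the Jurkat lists and 163 in 6T-CEM, where it spanned 60.4 kb and was large. The ELF1 region ranked 94 in Jurkat replicate 1, 1540 in Jurkat replicate 2 and 2526 in 6T-CEM. At SPI1 a large region of Jurkat replicate 2 spanned 71.4 kb (47377646 to 47448999), from the upper end of SPI1 across SLC39A13 and PSMC3.

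Among the remaining 18 ETS family genes, no peak lay in the windows of ETV1, ETV7, EHF, FEV and SPIC in any library. For 13 genes with peaks, the 6T-CEM value was above both Jurkat values in 5 (52.3% of all genes), below both in 3 (15.3%) and between in 5, with a median centred ratio of −0.20 and a median of −0.22 for Jurkat replicate 1 over 2. ETV5, a PEA3-group activator downstream of FGF and RAS signals, was listed at 0 in Jurkat replicate 1, with 316 bp in replicate 2 and 18095 bp, in 27 peaks, in 6T-CEM, and was the 1 gene of this list past 2-fold in that direction (14.4% of all genes). Past 2-fold in the other direction (11.5% of all genes) were 3, namely ETV3, with 1691, 2810 and 433 bp, its neighbour ETV3L, whose window shares the 433 bp, and SPDEF, an epithelial factor, with 0, 5690 and 1028 bp. The SPDEF value of 6T-CEM lies between the Jurkat values, whose own ratio was −3.46. ELF3, an epithelial factor as well, was listed at 0 in Jurkat and had 686 bp in 6T-CEM. ERF, a repressor regulated by ERK, had 21400, 28234 and 27539 bp in a window of which its body held 2132, 5669 and 5167 bp. Of the partner genes, GABPB1 and SRF had a start-site peak in each library, and none of GABPB1, GABPB2 and SRF was past 2-fold. SRF had 7180, 20746 and 15172 bp, and 6T-CEM lay between the Jurkat libraries.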

How the data were processed

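The data are H3K27ac peak lists from Jurkat (2 libraries) and 6T-CEM (1 library). The 3 IgG samples were not analysed here. MACS2 2.2.7, Bowtie2 2.2.5 and hg38 are named in the submitters' processing notes. Their options are not given in the sources used here. Deposited lists, called per library per their peak names, give a fold (a ratio to the caller's background), −log10 p and −log10 q, a score (10 times the −log10 q, whole part), and a summit offset, all values of the authors. CUT&Tag is the assay in the series text, whereas the labels' protocol speaks of sonicated nuclei and an antibody. Depth is unknown, which decides how many weak peaks a list holds.

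Only chromosomes 1 to 22 and X were analysed. Genes and start sites came from RefSeq tables of GRCh38.p14, the build of hg38. All 10 symbols matched, and 15812 of 19974 protein-coding genes had a listed start site. Covered bases were summed per gene body and 50 kb on each side, and genes with bases in any list formed the background. Regions were connected groups of peaks sharing 1 base or more. The 10 genes, the gene lists and the measures were chosen with earlier results of these data known. Named genes were the 10, the other 18 ETS genes and 3 partners past 2-fold or at 0 in 1 line, and neighbours at the peaks; ERF and SRF were named after their values were seen. The alternatives tried were lists of equal length, a minimum −log10 q of 5, no flank or flanks of 10 or 100 kb, 2000 bases added, a start window of 2.5 kb, other overlap rules, and leaving out each Jurkat replicate. The intervals are 95% and cover counting error only. The labels do not say if separate cultures gave the Jurkat replicates, so their spread may be technical. The scripts were tested on simulated peaks. Tables were made in Python 3.11.15 with pandas 2.3.3 and NumPy 2.4.6, intervals with SciPy 1.17.1, and figures with matplotlib 3.10.9.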

Additional observations from a re-analysis of the deposited data

How the results depend on the processing

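The count above both Jurkat libraries, 7 as reported, ranged from 5 to 8 over the alternatives run for it (all but the added bases). It was 5 at equal list length (38.7% of all genes), with no flank (47.2%) and with 10 kb on each side (48.8%). Without Jurkat replicate 1 (64.5%) or replicate 2 (70.8%), where 6T-CEM had to exceed only the remaining Jurkat library, it was 8. The start-site counts stayed within 1.5 times under a minimum −log10 q of 5, equal list length and a 2.5 kb window. At equal list length they were 5, 4 and 6 in Jurkat replicates 1 and 2 and 6T-CEM. The shares of all genes with listed starts were then 41.0%, 24.7% and 28.2%. The count below both, 1 as reported, was 2 at equal list length, where the share of all genes below both was 25.5% in place of 15.3%. It was 3 in the gene body with no flank (16.3% of all genes) and 2 with 10 kb on each side (16.3%). Without Jurkat replicate 1 (35.5%) or replicate 2 (29.2%), where 6T-CEM had to lie below only the remaining Jurkat library, it was 2. The count past 2-fold higher, 2 as reported, was 3 with a minimum −log10 q of 5 (15.3%), where the ELF2 ratio was 1.60. With 100 kb on each side it was 1 (13.3%), and with 2000 bp added it was 1 (7.01%). The count past 2-fold lower, 1 as reported, was 2 with 100 kb on each side (11.1%) and 0 with 2000 bp added (2.90%), and ranged from 0 (14.6%, without replicate 1) to 1 (16.3%, without replicate 2). The median ratio of the 10 genes, 0.31 as reported, was −0.039 with 10 kb on each side, 0.0038 with no flank, 0.15 with 100 kb, and −0.0069 to 0.47 with a Jurkat replicate left out. The share of regions in both Jurkat libraries with a 6T-CEM peak was 74.6% at equal list length. With a Jurkat replicate left out, where a region needs only 1 Jurkat peak, it was 78.6% against 54.1% of all regions without replicate 1, and 71.7% against 70.7% without replicate 2. Of genes past 2-fold, the ELK3 ratio reversed to −0.31 with 100 kb on each side, and the ELF1 difference was lost without Jurkat replicate 1, at 0.0025 (−2.08 without replicate 2). Among the others the GABPA ratio turned to −0.30 with no flank and −0.37 with 10 kb, and the ETS1 ratio to −0.20, −0.17 and, without Jurkat replicate 2, −0.24. The sign also turned without Jurkat replicate 2 for ETV6 (−0.23), ELF2 (−0.20) and SPI1 (0.26), at equal list length for SPI1 (0.051), and with 100 kb for SPI1 (0.27) and ETV6 (−0.00077). The cause was not tested. No paired analysis was possible because the groups compared, with 2 Jurkat libraries and 1 of 6T-CEM, share fewer than 2 replicate numbers and no test was run. Unknown depth limits statements on genes with few weak peaks, such as ELK3 and ELF2, where no peak does not show that the mark is absent.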
